A study of Homo sapiens with 2 samples.

Results

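ISGF3 is the transcription factor complex through which type I and type III interferons switch on antiviral genes. The genes described here are its components STAT2 and IRF9 and a set of classical interferon-induced genes: IFIT1, IFIT2, IFIT3, IFIT5, MX1, OAS1 and ISG15. They were found by gene symbol, with the older symbols ISGF3G for IRF9 and G1P2 for ISG15, and all transcript rows of these symbols were taken. The 9 genes had 15 rows among the 45033 transcript rows of the arrays, and 23595 genes were measured in all. The set was chosen by a model with the differences of these 2 arrays already in view, so its values are a description and support no test.

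The samples were total RNA from Panc1, an established cell line from a human pancreatic ductal carcinoma. One sample came from cells pretreated with DMSO, the solvent control, for 24 h, and the other from cells pretreated for 24 h with clofibrate, a lipid-lowering fibrate and agonist of the nuclear receptor PPARalpha. The labels name no later treatment after this step, no interferon treatment and no virus for either sample, and the clofibrate dose is not given in the sources used here. Each treatment had 1 array, so no difference has a replicate check and no test, p-value or standard error is given. Each row was a summary of 3 probes, given by the authors as an RMA intensity on a linear scale, and differences are log2 values, clofibrate minus DMSO.

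In the textbook pathway an interferon binds its receptor, and the kinases JAK1 and TYK2 attached to the receptor phosphorylate STAT2 among other targets. STAT2 joins IRF9, the DNA-binding subunit, and the resulting ISGF3 binds the interferon-stimulated response element in promoters such as those of the IFIT genes, MX1 and ISG15. STAT2 and IRF9 are themselves interferon-inducible, and even without interferon they can keep a low level of these genes going. In pancreatic and other cancer cells, part of the programme can be active without any added interferon.

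The response element is shown here because it is the sequence that links the factors to the other members. Its core was searched as GAAA, any 2 bases and GAAA again, and on the other strand as TTTC, any 2 bases and TTTC, in RefSeq promoter windows of 300 bases, from 250 before to 50 after each gene's start (GRCh38.p14). Capitals mark the matches, which overlap in ISG15. IFIT3 had 2 windows, of which the first is shown, and each stretch is printed on the strand of its gene.
ISG15, chr1:1013374-1013409: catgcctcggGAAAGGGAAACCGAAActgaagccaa
IFIT1, chr10:89392497-89392539: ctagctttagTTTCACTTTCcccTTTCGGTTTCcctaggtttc
IFIT3, chr10:89327831-89327894: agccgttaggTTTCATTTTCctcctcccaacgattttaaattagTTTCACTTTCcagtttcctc
IFIT5, chr10:89414513-89414583: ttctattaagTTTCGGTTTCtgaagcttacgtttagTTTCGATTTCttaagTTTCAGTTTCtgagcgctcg
The 2 matches of IFIT1 began 116 and 103 bases before its start, and those of ISG15 began 113 and 107 bases before. The 3 matches of IFIT5 lay closer, beginning 45, 19 and 4 bases before its start. Of 8 members with a promoter in the RefSeq table, 5 held a match in at least 1 of their windows (IFIT1, IFIT3, IFIT5, MX1 and ISG15), and 3 did not (STAT2, IRF9 and OAS1). Of all 27305 genes in that table, 4.38% held one in at least 1 window, and of its 35116 windows 3.57% did. A match is a description of the letters and not a site shown to be bound, and a window without one says nothing about the factor.

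Of the 9 genes, 4 were lit clearly: STAT2, IRF9, IFIT5 and ISG15 had a mean level no lower than the median gene (8.51 on the log2 scale), and are called bright. The other 5, IFIT1, IFIT2, IFIT3, MX1 and OAS1, were dim. A row of 5000 random probes gave a background intensity of 48.7 for DMSO and 48.1 for clofibrate. Of the 15 rows, 12 were above that background on both arrays and 3 were below it on both, namely IFIT2 and 2 rows of OAS1. Signals of different rows depend on their probes, so levels were not ranked between genes.

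**Figure D1:**
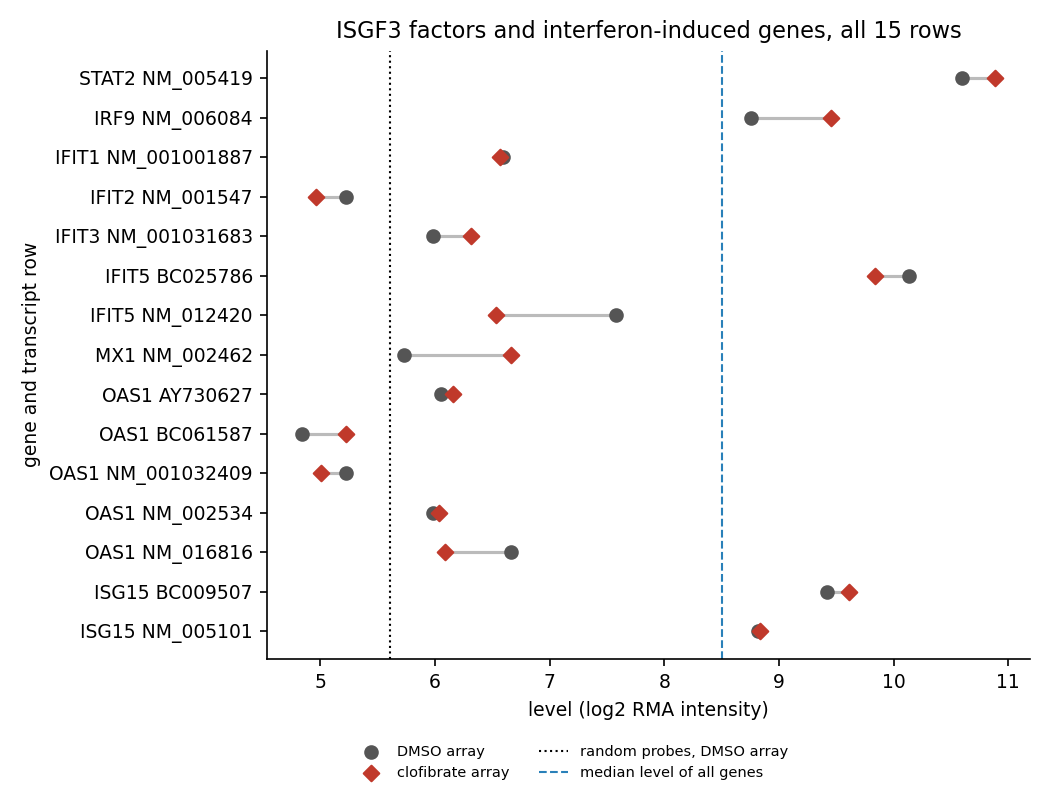
Level of each of the 15 transcript rows (log2 RMA intensity, x axis) for DMSO (grey circle) and clofibrate (red diamond), 1 array each, so there are no error bars. The dotted line is the random probes on the DMSO array and the dashed line the median level of all genes: 5 rows lie right of the dashed line on both arrays, and 3 lie left of the dotted line.

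Both ISGF3 factor genes read higher with clofibrate. IRF9, the DNA-binding subunit, had an intensity of 432 with DMSO and 702 with clofibrate. The difference was 0.70, or 1.63-fold. In bulk RNA, a change in the number of cells that make a transcript and a change in the RNA per cell cannot be told apart. Rows of like level (40 bins of equal number over all rows) had an SD of the difference of 0.32, so IRF9 lay 2.21 such SDs above 0. Its only row, NM_006084, lies on chromosome 14 from 23700371 to 23705612 (hg18).

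STAT2, the subunit that carries the transactivation domain, had an intensity of 1551 with DMSO and 1891 with clofibrate. The difference was 0.29, or 1.22-fold, against an SD of 0.24 among rows of like level. Its only row, NM_005419, lies on chromosome 12 from 55021647 to 55040176 (hg18).

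Among the bright induced genes, ISG15 barely differed and IFIT5 was lower. ISG15 encodes a ubiquitin-like protein that is attached to other proteins. Its row BC009507 went from 685 with DMSO to 783 with clofibrate, a difference of 0.19, and its row NM_005101 read 452 and 458, a difference of 0.02. Both lay within the SD of rows of like level, 0.31 and 0.36, and the gene mean was 0.11. The rows overlap on chromosome 1, from 938741 to 939782 (hg18).

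IFIT5, an RNA-binding protein with tetratricopeptide repeats, was the one bright member below 0. Its brighter row, BC025786, read 1126 with DMSO and 915 with clofibrate. The difference was -0.30 against an SD of 0.26. Its dimmer row, NM_012420, read 191 and 92.3, a difference of -1.05, which was 2.07-fold lower, but rows of that level had an SD of 0.57. The rows thus pointed the same way and differed in size by 0.75. Among the 1325 genes, IFIT5 included, with 2 rows and a mean level within 0.5 (log2) of that of IFIT5, the median gap between rows was 0.33. The gene mean of -0.67 (1.59-fold lower) therefore leans on the dim row, and it falls inside 1.5-fold when the brighter row is used alone. The mean level of IFIT5, 8.52, was just above the limit for a bright gene.

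The IFIT genes, which bind viral RNA and hinder its translation, lie next to each other on chromosome 10. The rows of the 4 members spanned 119 kb there, from 91051782 to 91170733 (hg18), in the order IFIT2, IFIT3, IFIT1, IFIT5. They did not move as a block. IFIT2 read 37.3 with DMSO and 31.2 with clofibrate, below the random probes on both arrays, so no fold is given. IFIT3 read 63.2 and 79.5, a difference of 0.33. IFIT1 read 96.3 and 94.7, a difference of -0.02. For both of these rows the SD among rows of like level was 0.61, larger than either difference. The promoter windows of IFIT1, IFIT3 and IFIT5 printed above all hold the core, and their genes read -0.02, 0.33 and -0.67. The second window of IFIT3, not printed, also held 2 matches. Windows were taken by gene and were not matched to the transcript that a row measures.

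MX1, a dynamin-like GTPase that blocks influenza and other viruses, had the highest difference of the members. Its only row, NM_002462 (chromosome 21, 41720023 to 41753008, hg18), read 53.1 with DMSO and 102 with clofibrate. The difference was 0.94, or 1.91-fold. The DMSO value was barely above the random probes, by 0.12 on the log2 scale, and 27.7% of rows of like level differed at least 1.5-fold in one direction or the other.

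OAS1 makes the messenger 2′-5′-oligoadenylate, which activates the nuclease RNase L. Its 5 rows, all from one locus on chromosome 12 (111829121 to 111842095, hg18), read between 28.7 and 101 over both arrays. Of these rows 3 were above 0 and 2 below, and the gene mean was -0.05. The row furthest from 0, NM_016816, read 101 with DMSO and 68.2 with clofibrate. Its difference of -0.57 was within the SD of 0.62 for rows of like level. Row AY730627 read 66.2 and 71.4, and row NM_002534 read 63.1 and 65.5, differences of 0.11 and 0.05. Rows BC061587 (28.7 and 37.4) and NM_001032409 (37.4 and 32.2) were below the random probes on both arrays. Rows of one locus share sequence and are not replicates.

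**Figure D2:**
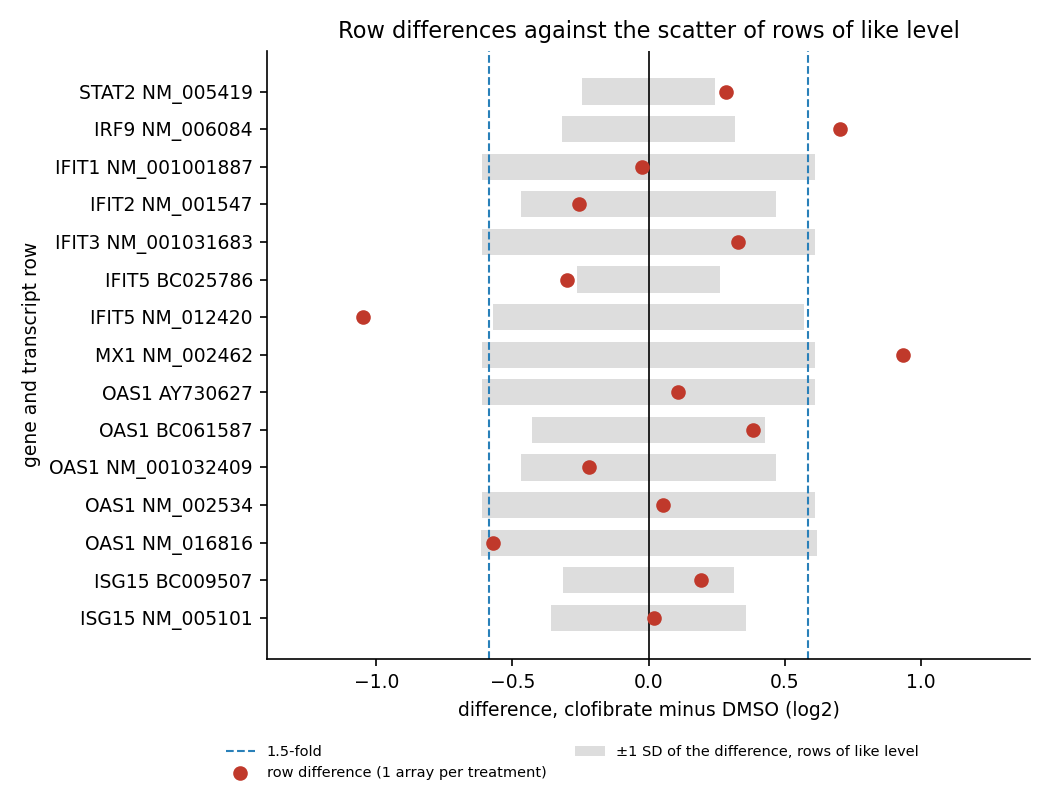
Difference of each of the 15 rows (clofibrate minus DMSO, log2, x axis; 1 array per treatment). Grey bars are 1 SD of the difference on either side of 0 among rows of like level, and dashed lines mark 1.5-fold: IRF9 (0.70), MX1 (0.94) and IFIT5 row NM_012420 (-1.05) lie outside both.

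Taking the set by counts, 3 of the 9 genes differed at least 1.5-fold: IRF9 and MX1 were higher and IFIT5 lower. Of all genes, 9.15% differed at least 1.5-fold, 4.53% higher and 4.62% lower. The share was 2.64% among bright genes, where IRF9 and IFIT5 lie, and 15.7% among dim genes, where MX1 lies. By rows, 3 of 15 differed at least 1.5-fold, and 12.8% of all rows did. At 2-fold none of the 9 genes differed (1.94% of all genes) and 1 of the 15 rows did, NM_012420 of IFIT5 (2.94% of all rows). At a log2 difference of 0.32, a lower threshold, 4 genes (29.0% of all genes) and 6 rows (35.1% of all rows) differed. Since the members were proposed with these values known, nothing is read from the gap between the counts and the background. By sign, 5 genes were above 0 and 4 below, beside 50.4% of all genes above 0. The median over the 9 genes was 0.11 and that over all genes 0.00356.

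**Figure D3:**
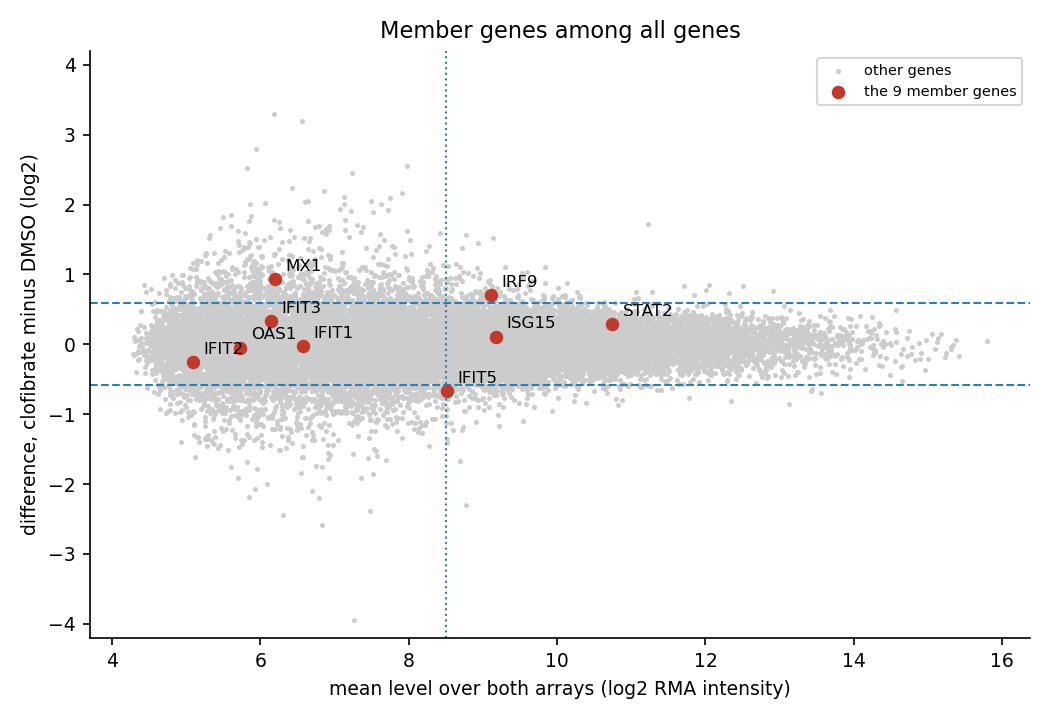
Difference (clofibrate minus DMSO, log2, y axis) against mean level over both arrays (log2 RMA intensity, x axis) for all 23595 genes (grey) and the 9 members (red, named), 1 array per treatment. Dashed lines mark 1.5-fold and the dotted line the median level of all genes: the scatter is wider left of it, where MX1 (0.94) lies, than right of it, where IRF9 (0.70) lies.

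The rest of the interferon pathway was read in 7 lists of 112 further genes, which were also chosen with earlier results of these data known. Past 1.5-fold, 6 of these genes were higher and 4 lower, or 8.93%, close to the 9.15% of all genes. Of the 38 bright ones only 1 was 1.5-fold different, or 2.63%, beside 2.64% of all bright genes. The median over the 112 genes was -0.05.

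The interferon genes themselves were dim throughout. None of the 21 ligand genes was bright, and 13 of them had a mean above the random probes on both arrays. IFNB1, which encodes interferon beta, had rows that pointed opposite ways. Row BC069314 differed by -1.18, and row NM_002176 (27.9 and 33.6) was below the random probes on both arrays. The ligand genes at least 1.5-fold higher were IFNA7 and IFNA2, named after their values were seen. IFNA7 read 5.05 and 7.07 on the log2 scale, and since the first value lay under the random probes the fold is a bound of at least 2.76-fold higher. Of the 3 rows of IFNA2, 1 differed by 0.33, and the other two were below the random probes with DMSO, which bounds them as at least 1.71-fold and 2.73-fold higher. The IFNA genes are near-identical copies, so their rows are open to cross-hybridisation.

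No receptor, kinase or STAT gene was 1.5-fold different. Of the 8 bright ones of 11 measured, 6 were below 0 and 2 above. JAK1, the kinase shared by all interferon receptors, was at -0.38, with rows at -0.43 and -0.33 against SDs of 0.23 and 0.26. IFNGR1, the ligand-binding chain of the interferon gamma receptor, was at -0.29. IL10RB, a chain of the type III receptor, was at -0.08, and TYK2, the kinase on IFNAR1, at -0.06. The type I receptor chains IFNAR1 (-0.11) and IFNAR2 (0.07) were dim, and their rows lay on both sides of 0.

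Among the other IRF factors, IRF3, which switches on interferon genes after viral RNA or DNA is sensed, was at 0.44. Its 3 rows differed by 0.96, 0.19 and 0.18, so the mean leaned on row NM_001571, which read 1381 with DMSO and 2683 with clofibrate. IRF8, a factor of myeloid and B cells, was at 0.12. IRF1, an interferon gamma target, was dim and at -0.05. IRF7, the factor that amplifies interferon production, was also dim and was the one gene of these 8 at least 1.5-fold different. It was at 0.84, with rows at 0.96 and 0.71, and is named after its value was seen.

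ISG15 conjugation was the list with the only bright gene past 1.5-fold. UBE2L6, the conjugating enzyme that passes ISG15 to its targets, read 1951 with DMSO and 1260 with clofibrate. The difference was -0.63, or 1.55-fold lower, against an SD of 0.26 among rows of like level (NM_004223, chromosome 11, 57075704 to 57091756, hg18). HERC5, the main ligase for ISG15, was at -0.28. USP18, the protease that removes ISG15 and also shuts down the type I receptor, was at 0.45. Its 2 rows read 885 and 1245, and 592 and 789, differences of 0.49 and 0.41 against SDs of 0.26 and 0.31. The activating enzyme gene UBA7 was dim, with 5.62 with DMSO and 6.36 with clofibrate on the log2 scale. It differed by 0.74, against an SD of 0.61 among rows of like level, and is named after its value was seen. Its DMSO value lay barely above the random probes, which were at 5.61 on that array. Beside ISG15 itself, at 0.11, the genes for adding and removing it thus lay on both sides of 0.

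The 44 other interferon-stimulated genes had a median of -0.06, with 19 above 0 and 25 below. The median was 0.04, on the other side of 0, with the brightest row of each gene. None of the 15 bright ones was 1.5-fold different, 7 were above 0 and 8 below, and their median was -0.02. The 4 bright genes furthest from 0 read lower. SAMD9, an antiviral and growth-restraining protein, was at -0.46 with rows at -0.73 and -0.20. EIF2AK2, the RNA-activated kinase PKR, was at -0.42 with 3 rows between -0.63 and -0.23. TDRD7 was at -0.33, and PLSCR1, a phospholipid scramblase, at -0.31. The dim genes past 1.5-fold, named after their values were seen, were RSAD2 (viperin) at -0.77, with rows at -0.95 and -0.59, IFI44 at -0.61, and SAMD9L, which was below the random probes on both arrays.

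Close relatives of the members, and separately the IFITM genes, all picked after their values were seen, had gene means within 1.5-fold. MX2 was at -0.12 beside MX1 at 0.94. OAS2 was at -0.24, OAS3 at -0.19 and OASL at 0.30, and each of these dim genes had rows on both sides of 0. The rows of OAS2 ran from -0.57 to 0.30, those of OAS3 from -0.72 to 0.34 and those of OASL from -0.03 to 0.62. The bright IFITM genes, whose proteins hinder virus entry, were at -0.02 (IFITM1), 0.09 (IFITM2) and 0.09 (IFITM3).

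Sensors that lead to interferon production had a list median of -0.22 over 12 genes, with 9 below 0. TICAM1, the adaptor of TLR3, was at -0.23, with rows at -0.49 and 0.02. The kinase TBK1 was at -0.21 and the RNA sensing adaptor MAVS at 0.12. TRAF3 was at -0.03, with rows from -0.41 to 0.21. TLR3, dim and named after its value was seen, read 6.22 with DMSO and 5.00 with clofibrate on the log2 scale. The second value lay under the random probes, which bounds it as at least 1.55-fold lower. Of 11 negative regulators, SOCS1 lay under the random probes on either array, and the bright members furthest from 0 were the SUMO ligases PIAS4 at 0.28, PIAS1 at -0.27 and PIAS3 at 0.10 and the phosphatase PTPN11 at -0.06. SOCS3, a dim gene named after its value was seen, was at least 1.55-fold higher, since its DMSO value was below the random probes.

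**Figure D4:**
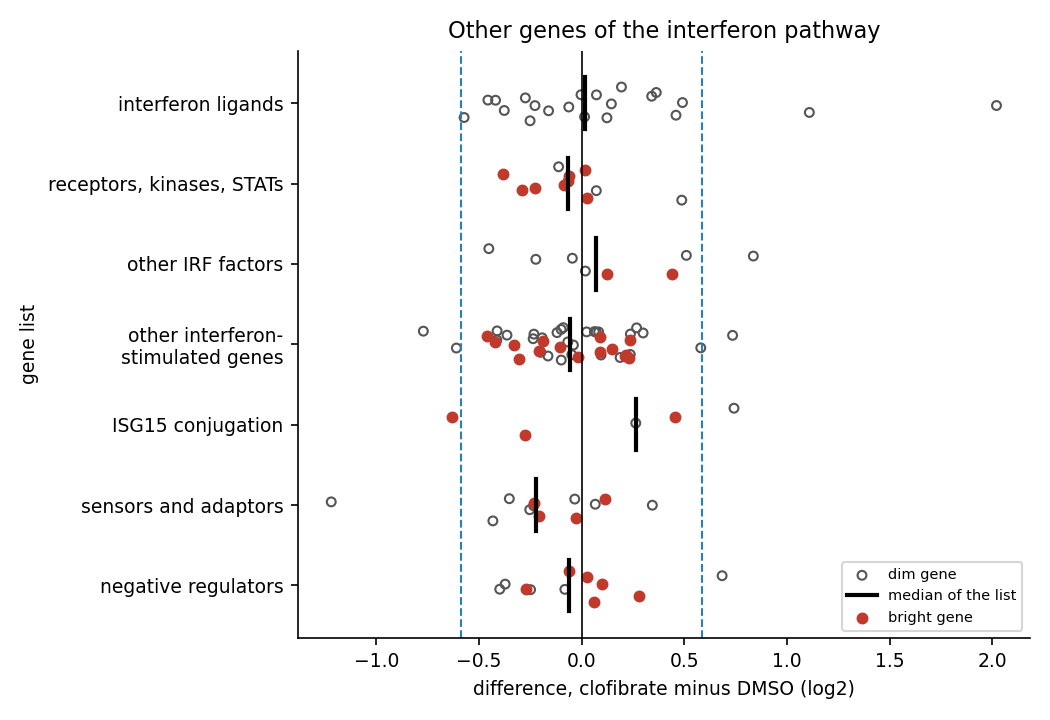
Difference of each of 112 further pathway genes (clofibrate minus DMSO, log2, x axis; 1 array per treatment) in 7 lists, with filled points for bright genes, open points for dim genes and a bar at the median of each list. Dashed lines mark 1.5-fold: the one filled point outside them is UBE2L6 (-0.63), and the furthest open point is IFNA7, whose DMSO value lay below the random probes.

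Genes that carry the response element core were set beside those that do not. Of the measured genes, 639 had a promoter window with a match, and their median difference was -0.03. The median was -0.00373 over 14684 measured genes with a window and no match. Among bright genes the medians were -0.03 over 270 genes and 0.00726 over 7677 genes. At least 1.5-fold differences made up 2.96% and 1.99% of them.

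The markers read for the cell type fit Panc1 in part: the epithelial keratins KRT8 and KRT18 were bright, at 9.64 and 9.41 with DMSO on the log2 scale, while KRT19, EPCAM and CDH1 were dim. Of 9 leukocyte markers, 5 had a mean above the random probes on both arrays, while PTPRC, the pan-leukocyte marker, was below the random probes on both. The summed intensity of the leukocyte list was 1187 with DMSO and 1291 with clofibrate. Of 4 markers of plasmacytoid dendritic cells, which make much interferon, LILRA4 was bright, at 9.28 with DMSO and 9.34 with clofibrate on the log2 scale. The other markers of that list were dim, with IL3RA at 1.09 and TCF4 at -0.97 in difference, and the summed intensity was 1119 and 1025. Of 5 fibroblast markers, COL1A1 was bright at 9.93 with DMSO and differed by -0.09, COL1A2 was dim and differed by -0.86, and the summed intensity was 1664 and 1584. The part of these markers in the values above was not tested.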

How the data were processed

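Total RNA of 2 Panc1 samples, DMSO and clofibrate, was measured on 1 array each. The deposited values are Cy3 intensities of NimbleGen arrays, which the authors summarised with RMA per the submitters' processing notes (no version or settings were stated). RMA as commonly run gives arrays a common distribution, which would hide a shift common to all genes. Per the file headers, 45031 of 45033 rows were summaries of 3 probes, on hg18. The column SE_EXPRS is not defined and was not used. The series value table held the same values.

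Intensities were converted to log2. A gene was the mean of its rows, and 42947 rows had a symbol, updated through RefSeq (GRCh38.p14) by gene ID. No test could be run on a single array per treatment, and that number limits the precision of each value. Counts used a 1.5-fold difference and were set beside the share of all genes or rows past it. Where an array lay at or below its random probes, the fold of a single row was given as a bound. Members and lists were chosen with earlier results of these data known. Named were all members, 9 fixed pathway genes and up to 4 bright genes of each list with the largest differences; others are marked in the text, and some genes that this rule names are left out of it. With 2 arrays, no gene could be named for a pattern like that of a member. The calculations were tested on simulated data with larger differences and less scatter than the member rows had. That checks the code and not the precision of these values. Calculations used pandas 2.3.3 and numpy 2.4.6 in Python 3.11.15, loess came from statsmodels 0.14.6, and plots from matplotlib 3.10.9.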

Additional observations from a re-analysis of the deposited data

How the results depend on the processing

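The results were recomputed with centring on the array median, quantile normalization, loess on the mean level, the brightest or the median row of each gene, only rows above the random probes on both arrays, a floor at the random probes, the series value table, removal of a loess on log10 span, and other fold thresholds. Leaving out MX1 and the IFIT5 row NM_012420 was chosen after seeing the data. STAT2 ranged from 0.27 to 0.29, IRF9 from 0.65 to 0.70 and MX1 from 0.94 to 0.95. IFIT5 ranged from -0.72 to -0.30, and it was at -0.30 with the brightest row or without row NM_012420. OAS1 ranged from -0.57 with the brightest row to 0.05 with the median row. In all, 87 of 88 single-gene values kept their sign, the exception being OAS1 with the median row. Some of the 88 could not change, so nothing is read from this count. The series value table held the same values. For the 6 genes with 1 row, the brightest and the median row were that same row. The median over the members stayed between 0.04 and 0.20. Of the 9 members, 0 were 2-fold different, and 1 was 1.5-fold different without MX1 and that IFIT5 row. Of the member rows, 1 was 2-fold different, 6 passed a log2 difference of 0.32, and 1 was 1.5-fold different without those rows. Of the 44 other interferon-stimulated genes, 3 were 1.5-fold different, beside 9.15% of all genes. With the brightest row there were 6, and no share of all genes was computed for that setting. At 2-fold there were 0 (1.94% of all genes), and at a log2 difference of 0.32 there were 10 (29.0% of all genes). Among the bright ones 0 were 1.5-fold different (2.64% of all bright genes). The median over the 44 genes, -0.06, was 0.038 with the brightest row. The cause of these shifts was not tested. No paired analysis was possible because there was only 1 array for DMSO and 1 for clofibrate. A leave-one-out check could not be made either. Dim rows, close to the random probes, limit IFIT1, IFIT2, IFIT3, MX1 and OAS1.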
